A study of Sus scrofa with 12 samples.

Results

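The dystrophin and laminin attachment complex was examined in longissimus dorsi muscle of Iberian pigs through 8 genes chosen by name for the proteins they encode: DMD, UTRN, DAG1, SGCA, SGCB, SGCD, DTNA and LAMA2. A row with the gene's symbol was found for 5 of the 8 among the 25880 gene rows of the count tables, namely DMD, UTRN, DAG1, SGCA and DTNA. SGCB, SGCD and LAMA2 were not analysed here. Muscle RNA was sequenced from 12 pigs with 1 library per pig. The High MB and Low MB groups held 6 pigs each, picked for high or low breeding values for muscle myoglobin, the oxygen-binding pigment of red meat. All 12 pigs were castrated males of a closed commercial population fattened outdoors on acorns and grass, and full siblings were avoided. By the study's methods they were slaughtered in the second year of life. Myoglobin content was 2.376 to 2.559 mg/g in the High MB group and 1.226 to 1.58 mg/g in the Low MB group, so the groups differ in inherited merit and measured myoglobin together, and no treatment was applied.

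The complex spans the muscle fibre membrane. Inside the fibre, dystrophin joins the actin cytoskeleton to dystroglycan, and dystroglycan binds laminin in the basement membrane outside, while the sarcoglycans steady dystroglycan in the membrane and dystrobrevin binds dystrophin and the syntrophins. Loss of dystrophin, sarcoglycans or the laminin alpha 2 chain leads to muscular dystrophy. Utrophin is the close relative of dystrophin that sits at the neuromuscular junction and in blood vessels of adult muscle.

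Because dystrophin and utrophin are encoded by paralogs, a long near-identical stretch could let reads of one be counted for the other, so the coding exons of both were compared. The pair of exons below, each 112 bases of the minus strand of Sscrofa11.1, shares one of the longest runs of identical bases. The DMD exon is at chrX:27097094-27097205 and the UTRN exon at chr1:20562205-20562316. Capitals mark the bases that differ between the 2 genes.
DMD: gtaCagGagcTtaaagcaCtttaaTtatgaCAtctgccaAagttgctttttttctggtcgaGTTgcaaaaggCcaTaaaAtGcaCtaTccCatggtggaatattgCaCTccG
UTRN: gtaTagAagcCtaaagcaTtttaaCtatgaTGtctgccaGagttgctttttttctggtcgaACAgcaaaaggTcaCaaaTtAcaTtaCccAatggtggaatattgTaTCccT
The exons were identical at 90 of 112 bases (80.4%), and the longest identical run was 21 bases, against reads of 150 bases. Of the 9742 different 20-base words in the coding exons of DMD, 5 were also present in UTRN, and no 25-base word was shared. Coding bases were 11326 of 19159 exon bases in DMD and 10659 of 20993 in UTRN. The other exon bases, and words across exon junctions, were not compared. With that limit, the counts of DMD and UTRN are treated below as separate measurements.

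Gene counts summed to between 38914271 and 91318334 per pig. The libraries fell into 5 deep ones (High MB pigs 4 and 6, Low MB pigs 1, 5 and 6) and 7 standard ones, and differences between the groups were also taken within each class. Levels are CPM, counts scaled to library size, after TMM normalisation, which takes most genes as equal between libraries. The muscle label fitted the data: the actin gene of skeletal muscle, ACTA1, was at 18547 to 73321 CPM. No marker gene used below was at 0 in all pigs, and TTN, MB, MYH7, VWF and S100B were not analysed here. High MB pig 2 stood apart: its summed CPM of 6 muscle fibre genes was 46575, against 80049 to 137750 in the other pigs, and its summed CPM of 5 macrophage genes was the highest, at 90.95. In bulk muscle, fewer cells of a type and less RNA per cell cannot be told apart.

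No member was called as different between the groups. A call needed an adjusted p-value (edgeR's quasi-likelihood test, Benjamini-Hochberg over 13373 genes) under 0.10 with a log2 fold change beyond 0.58 in either direction, and 0% of the genes tested met it, the smallest adjusted p being 0.563. DESeq2 called 29 genes, 0.201% of those tested, and no member. At an unadjusted p under 0.05, edgeR gave 8.46% of all genes (1132) and 1 of the 5 members, DMD. The largest member difference was a lower level of DMD in the High MB group, and UTRN was the member with the higher mean there.

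DMD encodes dystrophin (ENSSSCG00000028148, chrX:27028223-29650728, minus strand, RefSeq). Its levels in High MB pigs 1 to 6 were 180.7, 112, 122.0, 129.85, 103 and 141 CPM. In Low MB pigs 1 to 6 they were 152, 149.92, 168, 174, 205 and 174 CPM. Of the High MB pigs 5, all but pig 1, were below every Low MB pig, while High MB pig 1 was second only to Low MB pig 5. The means were 131 ± 27.5 CPM in the High MB group and 170.4 ± 19.8 CPM in the Low MB group (SD, n = 6 each). The log2 fold change, High MB minus Low MB, was -0.38 (SE 0.14, 95% interval -0.68 to -0.07), that is 1.30-fold higher in the Low MB group, with an edgeR p of 0.0154, an adjusted p of 0.563 and an exact permutation p of 0.0195 (two-sided, 6 against 6). The difference of mean log2 CPM was -0.38 among deep and -0.37 among standard libraries. Removal of 1 pig at a time moved the fold change between -0.31 without High MB pig 2 and -0.49 without High MB pig 1. The unadjusted edgeR p stayed under 0.05 in each of those fits. It did not within the deep or the standard libraries alone, nor without High MB pig 2 and Low MB pig 4 together, where the fold change was -0.30.

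UTRN, the utrophin gene (ENSSSCG00000004123, chr1:20514264-21047927, minus strand), was read at a lower depth of 646 to 1863 counts per pig. The High MB pigs 1 to 6 had 27.2, 22.03, 20.2, 22.7, 26.8 and 20.03 CPM, and the Low MB pigs 13.5, 16.2, 21.2, 20.1, 27.2 and 23.2 CPM. The ranges overlapped, and the 2 lowest values were both in the Low MB group. The log2 fold change was 0.20 (SE 0.16, 95% interval -0.15 to 0.54; adjusted p in edgeR 0.747). It was 0.10 without Low MB pig 1, 0.299 without Low MB pig 5, 0.04 among deep and 0.34 among standard libraries.

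**Figure D1:**
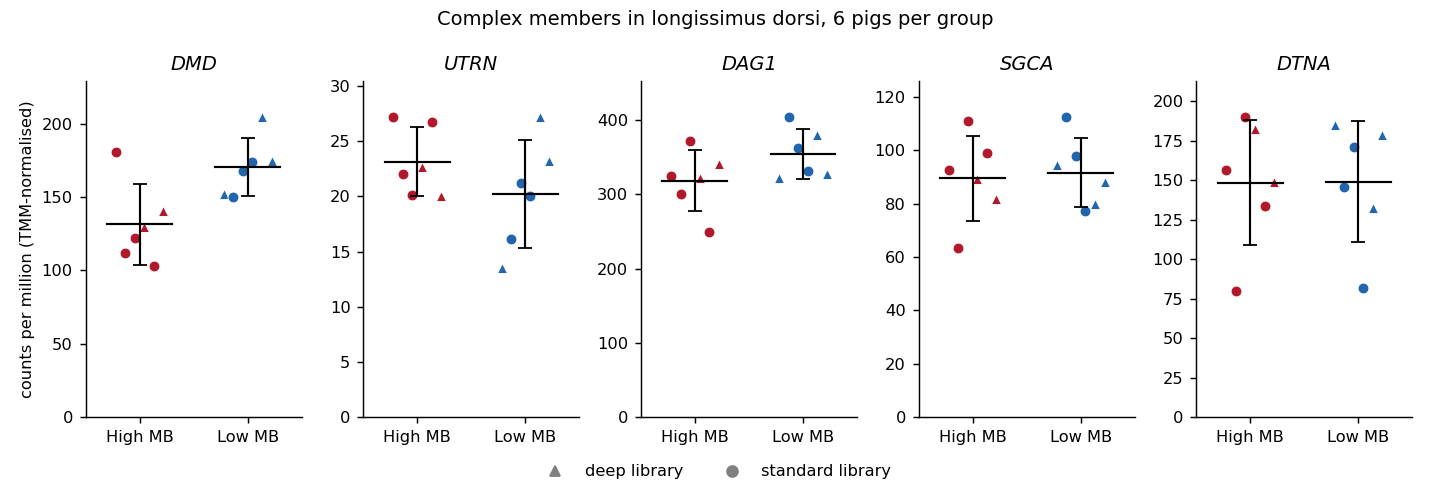
Level of each member in each pig, as TMM-normalised CPM on axes that start at 0. Points are pigs (triangles, deep libraries; circles, standard libraries), the long bar is the group mean and the error bar 1 SD (n = 6). The DMD panel has 5 of 6 High MB pigs below all Low MB pigs, with High MB pig 1 inside the Low MB range, while the other 4 genes overlap more widely and DTNA has 1 low pig in each.

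The remaining 3 members encode the proteins of the membrane and its inner face. DAG1 encodes dystroglycan, the receptor that holds laminin (ENSSSCG00000034357, chr13:32028019-32092450, plus strand). It was at 325, 300.5, 372, 322, 249.64 and 339.84 CPM in High MB pigs 1 to 6 and at 321, 404, 362, 331, 379.95 and 328 CPM in Low MB pigs 1 to 6. Below every Low MB pig were 2 High MB pigs, and above every High MB pig 2 Low MB pigs. The log2 fold change was -0.15 (95% interval -0.41 to 0.10; adjusted p in edgeR 0.716). It was -0.09 without High MB pig 5, -0.10 without Low MB pig 2, -0.01 in the fit of deep and -0.22 in that of standard libraries.

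SGCA encodes alpha-sarcoglycan, a membrane subunit found mainly in striated muscle (ENSSSCG00000017583, chr12:26356691-26368561, plus strand). High MB pigs 1 to 6 had 92.5, 63.5, 111, 89.2, 98.8 and 81.6 CPM, and Low MB pigs 94.3, 112, 97.7, 77.3, 79.7 and 88.1 CPM. The group ranges were nearly the same but for High MB pig 2. The log2 fold change was -0.03 (95% interval -0.34 to 0.27; adjusted p in edgeR 0.964), and its sign turned under other settings.

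DTNA encodes alpha-dystrobrevin, the inner partner of dystrophin (ENSSSCG00000028047, chr6:118333069-118753516, plus strand). Its levels were 156, 79.7, 190.02, 182, 134 and 149 CPM in High MB pigs 1 to 6 and 185, 146, 171, 82.1, 133 and 179 CPM in Low MB pigs 1 to 6. High MB pig 2 and Low MB pig 4 were the lowest of their groups. A test of the gap to the next pig (Dixon's) marked neither as an outlier. The log2 fold change was -0.01 (95% interval -0.49 to 0.48; adjusted p in edgeR 0.996), its sign turned under other settings, and the interval is the widest of the 5 members.

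Since DMD was lower and UTRN not lower in the High MB group, the level of one over the other was formed within each pig, after their values had been seen. Library scaling cancels in this ratio, apart from the prior count of 2 added before taking logs. The log2 ratio of DMD over UTRN lay between 1.94 and 2.81 in High MB pigs and between 2.91 and 3.49 in Low MB pigs. All 6 High MB pigs were below all 6 Low MB pigs. The means were 2.49 ± 0.31 and 3.10 ± 0.22 (SD, n = 6 each), a difference of -0.61. The pair was singled out because its genes had been seen to move apart, so the difference is a description and was given no test. Of the 10 pairs of members it was the one whose ratio separated the groups. Of the log2 ratios of DMD with each other gene tested, 1.86% separated the groups, and of those of UTRN 0.135%. Without normalisation to a second gene, the CPM of 0.426% of genes separated the groups and that of no member did. The difference was -0.44 among the deep libraries (2 against 3 pigs) and -0.70 among the standard ones (4 against 3).

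Other cell and fibre markers differed between the same groups in 3 of 9 lists before adjustment, and the exact permutation p of the other 6 was 0.0693 to 0.597. Summed CPM of 6 slow fibre genes was 6433 to 12555 in the High MB group and 4842 to 8404 in the Low MB group (exact permutation p = 0.0281, 5 of 6 genes higher at an unadjusted edgeR p under 0.05). Fibroblast genes summed to 644 to 1136 CPM against 331 to 841 CPM (exact permutation p = 0.0498, 4 of 7 higher), and macrophage genes to 31.6 to 90.95 CPM against 19.2 to 39.5 CPM (exact permutation p = 0.0303, 4 of 5 higher). The 5 endothelial genes, of a cell type that contains utrophin, summed to 118 to 161 CPM against 72.2 to 177 CPM (exact permutation p = 0.139). UTRN followed them over the 12 pigs with r = 0.74 (rho 0.43, permutation p 0.0236 and 0.214, adjusted over 45 relations 0.286 and 0.680), which fell to 0.25 without the 2 pigs farthest from the median. Adipocyte genes had the largest difference of the marker lists, 55.3 to 228 CPM against 35.8 to 199 CPM (1.05 in log2, exact permutation p = 0.0693, 2 of 5 genes higher). DMD followed them with r = 0.70 (rho 0.69, permutation p 0.0109 and 0.0160, adjusted 0.244 and 0.314), and with 0.49 without the 2 farthest pigs. With the muscle fibre genes, whose summed log2 level differed by -0.21, High MB minus Low MB (exact permutation p = 0.422), DMD had r = 0.51 (rho 0.65, permutation p 0.163 and 0.0255, adjusted 0.5803 and 0.314), and 0.31 without the 2 farthest pigs. For UTRN and the adipocyte genes r was 0.57 (rho 0.59, permutation p 0.0825 and 0.0671, adjusted 0.464 and 0.416), and 0.82 without the 2 farthest pigs. The part of these cells in the DMD over UTRN difference was not tested.

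**Figure D2:**
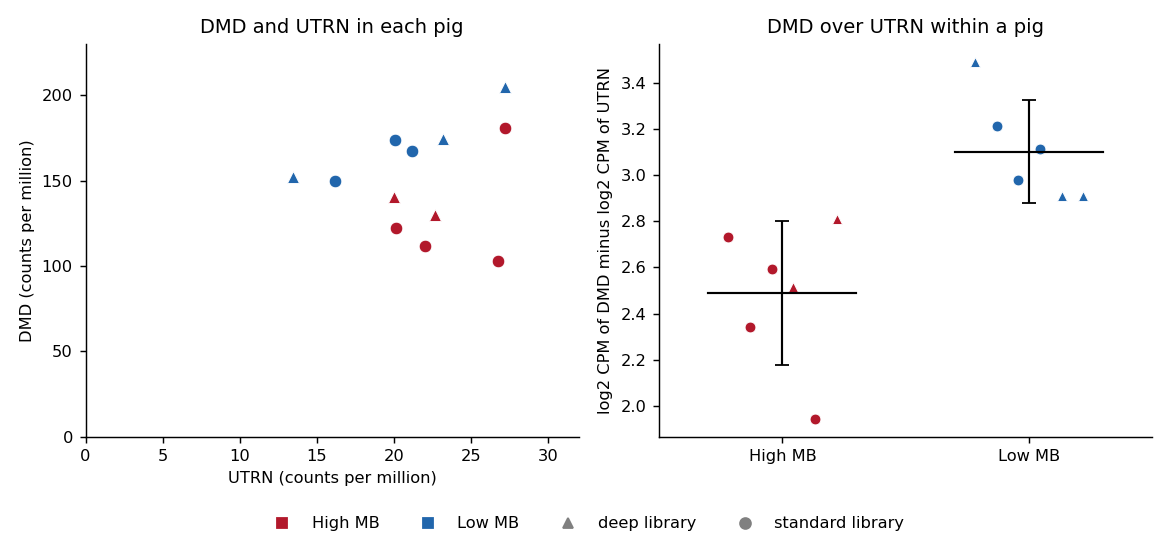
DMD against UTRN in CPM in each pig (left), and the log2 ratio of DMD over UTRN by group (right), where the long bar is the mean and the error bar 1 SD (n = 6). At a given UTRN level the Low MB pigs lie higher in DMD, and the ratio lies between 1.94 and 2.81 in High MB pigs and between 2.91 and 3.49 in Low MB pigs.

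To compare the genes with each other, CPM was divided by the length of all exons in the RefSeq gene models, giving RPKM, a level per length. The counts were made on Ensembl gene IDs, so reads and lengths come from different gene models. A RefSeq exon outside the counted models adds length but no reads. SGCA was highest at 62.6 ± 9.66 (SD, n = 12), followed by DAG1 at 46.4 ± 5.56, DTNA at 12.8 ± 3.21, DMD at 7.87 ± 1.60 and UTRN at 1.03 ± 0.201. This order held in 11 of 12 pigs. SGCA exceeded DAG1 by 1.34-fold in 12 of 12 pigs, but the order of that pair reversed with coding length, where DAG1 stood at 125 and SGCA at 77.4 RPKM. The genes were put in order by these same values, so no p-value is given for the steps. DAG1 exceeded DTNA by 3.73-fold in 12 of 12 pigs, and DTNA exceeded DMD by 1.60-fold in 11 of 12. These sizes depend on the length used: over coding length the mean log2 ratio of DAG1 over DTNA was 1.01 in place of 1.90, and that of DTNA over DMD 2.24 in place of 0.68. DMD exceeded UTRN in every pig, by 4.22 to 12.4-fold and 7.62-fold on average. By pig this fold was 7.28, 5.56, 6.63, 6.27, 4.22 and 7.69 in High MB pigs 1 to 6, and 12.4, 10.2, 8.67, 9.501, 8.24 and 8.24 in Low MB pigs 1 to 6.

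**Figure D3:**
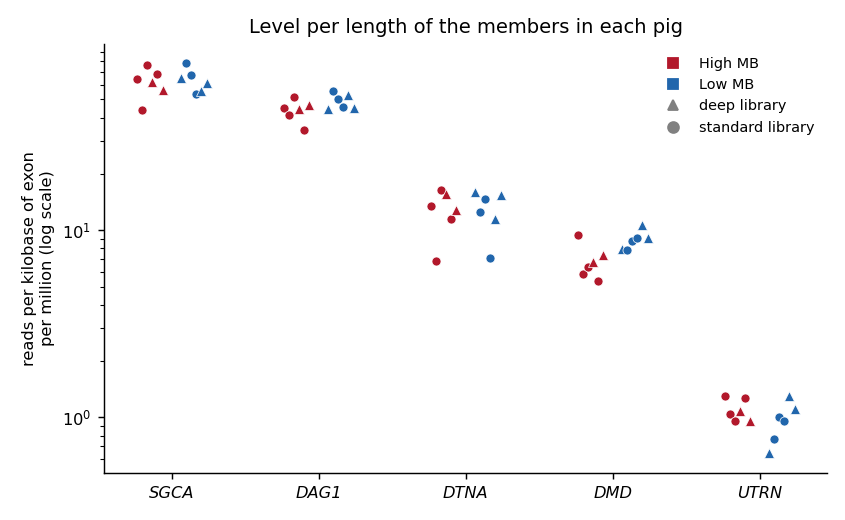
Level of the members per length (RPKM over RefSeq exons, log axis) in each pig, High MB to the left and Low MB to the right of each gene. SGCA and DAG1 lie highest and UTRN lowest, with DMD 4.22 to 12.4-fold above UTRN.

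The members differed in how steady they were between pigs. The pooled within-group SD of log2 CPM was 0.17 for DAG1, 0.23 for DMD, 0.24 for SGCA, 0.29 for UTRN and 0.45 for DTNA, against a median of 0.33 over all genes tested. DAG1 varied more than 10.8% of all genes and 21.2% of the 515 genes within 2-fold of its level. DTNA varied more than 68.1% of all genes and 86.9% of the 1217 genes within 2-fold of its level, and this rested on High MB pig 2 and Low MB pig 4. These 2 pigs were picked after the values were seen. Without them the SD was 0.21 for DTNA, 0.18 for DAG1 and SGCA, 0.25 for DMD and 0.32 for UTRN.

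The members did not move as 1 unit over the pigs. After centring on the group means, the highest of the 10 pairwise correlations was that of SGCA and DTNA, with r = 0.72 and rho = 0.56 (permutation p 0.0161 and 0.0773, adjusted over the 10 pairs 0.161 and 0.461), falling to 0.45 without the 2 pigs farthest from the median. Within the 5 deep and the 7 standard libraries it was 0.96 and 0.90. Several other pairs also lay far from 0 in the 5 deep libraries. There r was -0.97 for DMD and SGCA and -0.90 for DMD and DTNA, against -0.0049 and 0.20 in the 7 standard ones. For DMD and UTRN r was 0.47 and rho 0.50 (permutation p 0.0751 and 0.0921, adjusted 0.376 and 0.461), and it was 0.71 without the 2 farthest pigs. It was 0.82 among deep and 0.40 among standard libraries, and 0.18 within the High MB and 0.91 within the Low MB group, a difference that was not tested. None of the 10 passed an adjusted p of 0.05. Within groups, none of 10 relations of a member with myoglobin content passed either, with r between -0.54 and 0.61 and a smallest adjusted permutation p of 0.958.

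Of the 45 relations between members and marker lists, 1 passed in r. DTNA rose and fell with the summed genes of the satellite cell list (r = 0.81, rho = 0.84, permutation p 0.00086 and 0.00264, adjusted 0.0387 and 0.119, r without the 2 farthest pigs 0.82). Mean levels were 58.4 CPM for the cadherin gene CDH15, 8.95 for CHRNA1, 4.29 for PAX7 and 0.701 for MYF5. The sum was thus mostly CDH15, and the relation is with this sum, not with a count of satellite cells. This relation did not pass in rho.

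The genes whose log2 CPM, centred on the group means, was most like that of each member over the 12 pigs were read from 11622 genes with a mean of at least 1 CPM. For DMD they were AFF1 (r = 0.92), a factor of transcription elongation, ZNF106 (0.91) and ENSSSCG00000025752 (0.89). For UTRN they were DENND2A (0.94), KITLG (0.92), the ligand of the KIT receptor, and CAV1 (0.90), the caveolin of vessels and fat cells. For DAG1 they were CLASP1, TBPL1 and RYBP (0.86 each), for SGCA RNF43, ACAA2 and IQCB1 (0.93 each), and for DTNA VPREB3 (0.95), LANCL1 (0.94) and CCDC9B (0.93). No member was among the 3 nearest genes of another. DTNA ranked 401 for SGCA and UTRN 738 for DMD. These values are descriptions over shared libraries and carry no test.

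The other parts of the attachment machinery were read from 4 gene lists, of which 56 of 70 genes were tested. None was called, 6 were higher and none lower in the High MB group at an unadjusted p under 0.05, against 5.33% of all genes higher and 3.13% lower. The 56 genes were evenly split, 28 above and 28 below 0, and their median log2 fold change was -0.0035, beside -0.02 over all genes.

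Among the 5 further subunits of the complex that were tested, none passed an unadjusted p of 0.05 and the median log2 fold change was -0.24. This median was -0.13 without High MB pig 2, -0.13 without Low MB pig 4, -0.09 without Low MB pig 2 and -0.37 within the standard libraries. Under the alternatives at most 1 of these genes in each direction had an unadjusted p under 0.05. SNTB1, encoding the adaptor beta-1 syntrophin, was at 16.8 to 123 CPM in the High MB group and 85.2 to 156 CPM in the Low MB group (log2 fold change -0.55, adjusted p in edgeR 0.654). The lowest value was that of High MB pig 2, and the fold change was -0.32 without it. SNTB2, the related beta-2 syntrophin gene, was at 0.849 to 2.57 CPM against 0.382 to 1.03 CPM (log2 fold change 0.73, adjusted p in edgeR 0.587), and at 0.42 without High MB pig 2, which was its highest. SSPN, NOS1 and SGCE, encoding sarcospan, neuronal nitric oxide synthase and epsilon-sarcoglycan, were at log2 fold changes of -0.24, -0.26 and -0.06.

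On the outer side, 19 genes of laminin chains, basement membrane and the integrin link were tested. Their median log2 fold change was 0.27 and 17 of 19 were above 0, against 46.9% of all genes tested, and 4 were higher in the High MB group at an unadjusted p under 0.05. That count rested on single pigs. It was 2 without High MB pig 5, High MB pig 6, Low MB pig 1 or Low MB pig 3, 1 without Low MB pig 2, 7 without Low MB pig 5 or pig 6, and between 1 (deep libraries alone) and 7 under the other alternatives, while the number of genes above 0 was 15 to 18 with 1 pig left out. LAMA4, the laminin alpha 4 chain of vessel and fat basement membranes, was at 18.01 to 27.6 CPM in the High MB group and 10.7 to 25.2 CPM in the Low MB group (log2 fold change 0.50, unadjusted p 0.0219, adjusted p in edgeR 0.563). NID1, encoding the laminin-binding nidogen-1, had a log2 fold change of 0.41, COL6A1, a collagen VI chain, 0.37, and BGN, the proteoglycan biglycan, 0.65, with adjusted p-values in edgeR of 0.570 to 0.578. With 1 pig left out at a time, NID1 missed the unadjusted p of 0.05 in 8, COL6A1 in 7 and BGN in 5 of 12 fits, and LAMA4 in none. The lowest log2 fold changes in those fits were 0.28 for NID1, 0.27 for COL6A1, 0.42 for BGN and 0.41 for LAMA4. These are also genes of fibroblasts and vessels. The summed fibroblast genes were higher in the same group, while the summed endothelial genes had an exact permutation p of 0.139. The part of these cells in the values of this list was not tested. The 2 genes below 0 were LAMB3 (-0.46) and ITGB1 (-0.03), and the muscle integrin gene ITGA7 was at 0.12.

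The laminin-binding sugar chain on dystroglycan was read through 15 tested genes, of which DPM1, DPM2 and DOLK also serve other glycosylation. The 15 had a median log2 fold change of -0.08, with 2 above and 13 below 0 (46.9% of all genes tested were above). None passed an unadjusted p of 0.05. The median was -0.03 without Low MB pig 4, with 5 of 15 above 0, and -0.05 without High MB pig 2. Within the deep libraries it was 0.05, with 11 of 16 above 0, where 51.5% of all genes were above.

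Of 17 genes of the cytoskeleton under the membrane and of membrane repair, 8 were above and 9 below 0. Their median was -0.08, and with 1 pig left out it lay between -0.10 without High MB pig 2 and 0.01 without Low MB pig 4. The 2 higher at an unadjusted p under 0.05 were ANXA2 and ANXA1, encoding annexins, calcium-dependent proteins that gather at membrane lesions, while the other annexin gene of the list, ANXA6, was at -0.08 (adjusted p in edgeR 0.851). ANXA2 was at 71.1 to 216 CPM in the High MB group and 43.7 to 85.4 CPM in the Low MB group, where 5 of the 6 pigs exceeded each Low MB pig (log2 fold change 0.88, unadjusted p 0.00229, adjusted p in edgeR 0.563). ANXA1 was at 17.5 to 46.03 CPM against 11.3 to 21.4 CPM, also with 5 of 6 above (0.64, unadjusted p 0.00874, adjusted p in edgeR 0.563). High MB pig 2, with the highest macrophage sum, had the highest level of both, and the log2 fold changes without it were 0.67 and 0.43. The repair genes DYSF and TRIM72, encoding dysferlin and MG53, were at -0.08 and 0.01.

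**Figure D4:**
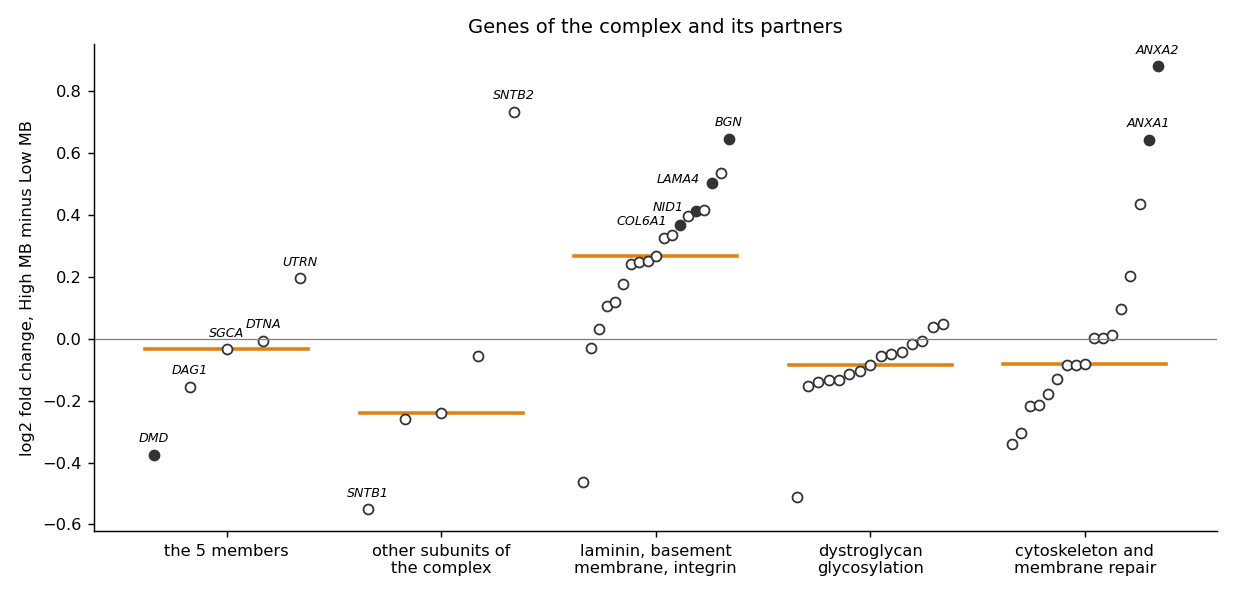
Log2 fold change (High MB minus Low MB, edgeR) of each tested gene of the complex and of the 4 partner lists, ordered by value within a list. Filled points passed an unadjusted p of 0.05, none passed after adjustment, and the orange bars are list medians, of which the one for laminin, basement membrane and integrin genes is the highest, at 0.27.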

How the data were processed

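Per the labels and the study's methods, the authors sequenced paired reads of 150 bases, trimmed them with Trim Galore, used HISAT2 for alignment to Sscrofa11.1, and deposited raw counts per gene from HTSeq, 1 table per pig. Tool versions, annotation release and strand setting are not given in the sources used here. Between 47.0% and 48.2% of uniquely placed reads fell in a gene. The transcript tables were not used, because the references at hand held no table that ties their identifiers to these genes. The planned transcript test was not run. Members, gene lists and tests were chosen with earlier results of these data known.

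Genes were tested with edgeR 4.0.16 in R 4.3.3 (TMM, filterByExpr, glmQLFit, glmQLFTest) over all 12 pigs with no covariate. The procedure was tested on simulated data. DESeq2, the study's tool, was run here in version 1.42.0 as an alternative. The others were other size factors, filters, covariates, the depth classes (over 50000000 gene counts is deep) and each pig left out. Log2 CPM used a prior count of 2. Single values were compared by exact two-sided permutation of the pigs, and correlations over pigs by permutation after centring on group means. Positions, exon lengths and sequences came from RefSeq, Sscrofa11.1. Besides the members, list genes were named by rule where the unadjusted p was under 0.05 or the absolute log2 fold change was among the 5 largest, and the 3 genes most like each member were named. SSPN, NOS1, SGCE, LAMB3, ITGB1, ITGA7, ANXA6, DYSF and TRIM72 were chosen after their values were seen. Pigs are separate animals. Counting error alone sets a floor of 3 counts per library, under which no member fell. The result of 1 gene is not reported here.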

Additional observations from a re-analysis of the deposited data

How the results depend on the processing

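No member was called under any of 25 alternatives, and DMD, UTRN and DAG1 kept their sign in all of those fitted. DESeq2 called 29 genes and the fit within deep libraries 1, where edgeR called 0 (1132 genes had an unadjusted p under 0.05). The log2 fold change of SGCA turned positive with upper quartile factors (0.024), within deep libraries (0.0093) and without High MB pig 2 and Low MB pig 4 together (0.029). That of DTNA turned positive with DESeq2 (0.0064), RLE factors (0.0072), at least 10 counts in every pig (0.021), the depth class covariate (0.045), upper quartile factors (0.051), within deep (0.046) and standard libraries (0.085) and without the same 2 pigs (0.025). With each pig left out, the ranges were -0.11 to 0.069 for SGCA and -0.11 to 0.15 for DTNA. Upper quartile factors moved all genes alike, from a median of -0.016 to 0.037, so the sign change there is not particular to these genes. The cause of the others was not tested. The glycosylation median was 0.049 within deep libraries. Coding length reversed SGCA over DAG1, from 0.42 to -0.70 in log2, and moved DAG1 over DTNA from 1.90 to 1.01 and DTNA over DMD from 0.68 to 2.24. The correlation of SGCA and DTNA was 0.91 with depth class centred out and 0.50 to 0.80 with 1 pig left out, and that of DMD and UTRN 0.33 to 0.71.

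The DMD over UTRN difference, whose alternatives were chosen after seeing the data, was -0.68 to -0.50 with 1 pig left out, -0.58 without the 2 pigs together, and -0.44 and -0.70 within deep and standard libraries, where fewer pigs were compared. The individual numbers did not pair the pigs: same-numbered pigs correlated at -0.21 to 0.14. With the number as a replicate block the log2 fold change of DMD was -0.39, the DMD over UTRN difference -0.61, 957 genes had an unadjusted p under 0.05, and 0 were called. The transcript alternative was not run. UTRN, at 646 to 1863 counts, has the least depth of the members.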
